A study of Mus musculus with 10 samples.

Results

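ATAC-seq, which cuts open chromatin with the Tn5 transposase and counts the resulting reads over called peaks, was used here to look at the genes that collect many accessible sites in the mouse small intestinal epithelium. The genes described are the 403 Ensembl gene IDs with 30 or more peaks in the deposited peak table, out of 44580 gene IDs with any peak, and they hold 15791 of 245885 peaks. Membership is a count of peaks and uses no read count. At the edge of the rule, 53 gene IDs had exactly 30 peaks and 52 had 29. Intestinal epithelial cells (IECs) of the upper small intestine, labelled duodenum and described in the study's methods as taking in the upper jejunum too, were sorted from 5 WT mice (WT1 to WT5, Zip14+/+) and 5 KO mice (KO6 to KO10, Zip14-/-), the KO mice carrying a global deletion of Zip14 (Slc39a14), a transporter of zinc and other metals. Both genotypes had a C57BL/6 background and were young adults, female unless stated otherwise by the study. Because the deletion was global, every cell type of the KO mice lacked the gene. The comparison asks whether accessibility at these genes differed between genotypes.

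Most accessible sites of a gene are distal elements, such as enhancers, and only a few lie at its promoter. Peaks are given to a gene by an annotation step, so that long genes and genes in sparsely populated stretches tend to gather more of them. A gene with many peaks therefore reads out a neighbourhood of many weak elements rather than a single site. Cadherins, which appear among the named members, are calcium-dependent adhesion proteins that hold epithelial cells together. Sialyltransferases, the other family represented, finish the glycan chains on mucins and surface proteins.

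The table held no peak coordinates, and it paired no gene ID with a symbol. The study's list of transcripts differentially expressed between WT and KO gave symbols for 267 of the gene IDs with a peak. These included 3 members, which left 400 members without a name. A member is therefore named here only because the study listed its RNA as differing, so the named members are not a neutral sample. The named members were Cdh26 (ENSMUSG00000039155), Cdh13 (ENSMUSG00000031841) and St3gal4 (ENSMUSG00000032038). Of 13 gene lists prepared, covering transcription factors, signalling pathways, adhesion, channels, solute carriers, junctions and zinc handling, only the cadherin list had members with a known symbol, and these were Cdh13 and Cdh26. That list had 3 genes paired with an ID, and the others had from 0 (zinc handling among them) to 6 (solute carriers). The lists therefore cannot show which families the members belong to. None of 45 marker genes for epithelium, leukocytes, endothelium, erythroid cells, stroma and neurons had a symbol paired with an ID, so the cell type on the label could not be checked here. A change in the mixture of cells and a change in accessibility per cell cannot be told apart in such bulk samples.

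The order of the peaks along the chromosomes was inferred, by taking the rows as listed in text order of a running number. This order was checked against 244 genes of known symbol and position, which also served to place the peaks on RefSeq GRCm38.p6. All 244 come from the study's list of differentially expressed transcripts. Cdh26 lies on chromosome 2 at 178430515 to 178487366. Cdh13 is a gene of 1184913 bases on chromosome 8 at 118140017 to 119324929. St3gal4 lies on chromosome 9 at 35046576 to 35116864, on the minus strand, so its start is at the high end of the interval. Over the 244 genes, the number of peaks had a Spearman rho of 0.29 with gene length and 0.26 with the summed distance to the next gene on each side, as a description across genes that are not independent.

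Promoters from RefSeq (GRCm38.p6) are shown for Cdh26 and St3gal4, the named members matched in the promoter table (2 of 3), because they show how unlike the start regions of members can be. Each runs from 250 bases before to 50 bases after the annotated start, 5′ to 3′ on the gene's strand. Capitals mark matches, on either strand, to the GC box (GGGCGG), the CCAAT box (CCAAT), the TATA box (TATAAA), the motif of AP-1 factors (TGANTCA), that of GATA factors (AGATAAG), that of HNF4 factors (CAAAGTCCA) and an E-box (CACCTG).
Cdh26, chr2:178430265-178430564, plus strand: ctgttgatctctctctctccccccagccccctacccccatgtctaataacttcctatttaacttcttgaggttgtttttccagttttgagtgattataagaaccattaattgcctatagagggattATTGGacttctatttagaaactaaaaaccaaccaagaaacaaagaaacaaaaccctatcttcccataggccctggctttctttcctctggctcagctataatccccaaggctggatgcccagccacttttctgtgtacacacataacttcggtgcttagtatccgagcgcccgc
St3gal4, chr9:35116815-35117114, minus strand: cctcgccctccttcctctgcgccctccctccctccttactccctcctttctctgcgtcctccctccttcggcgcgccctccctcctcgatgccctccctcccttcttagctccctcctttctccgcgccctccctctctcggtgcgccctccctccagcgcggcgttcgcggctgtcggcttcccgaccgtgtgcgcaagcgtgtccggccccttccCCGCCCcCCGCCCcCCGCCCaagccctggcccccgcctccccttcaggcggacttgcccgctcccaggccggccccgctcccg
The Cdh26 window had 44.0% G and C with 4 CpG dinucleotides, and its 1 match was to CCAAT, which 37.4% of all 32851 promoter windows hold. The St3gal4 window had 74.0% G and C with 31 CpG dinucleotides and 3 matches to GGGCGG, a motif held by 35.7% of promoter windows. The other motifs were found in 0.475% (CAAAGTCCA) to 20.2% (CACCTG) of promoter windows and in neither of these. CCAAT and GGGCGG do not overlap each other in either window. A match is a run of letters and not a binding site.

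Members were crowded together along the chromosomes. The peaks of 402 of the 403 members formed a single unbroken stretch, and the remaining one was interrupted by 1 entry, and the same held for 99.99% of the other genes with 2 or more peaks. Of the members, 111 were followed directly by another member, and 210 stood in 99 such runs. The longest run joined 4 members with 64, 40, 51 and 36 peaks, 191 in all, near the boundary of chromosomes 16 and 17. The number of peaks per member had a median of 36 and reached 115, with 263 members at 30 to 39, 124 at 40 to 59 and 16 at 60 or more. The members could be placed on a chromosome in 269 cases and covered 20 chromosomes, and 134 lay between marker genes of different chromosomes.

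Peaks of the members were weak. Their median mean count was 5.3 per mouse, against 6.5 for the other peaks, and 24.4% of them passed the filter on low counts, against 33.4% of the others. This left 3848 member peaks in the test over single peaks, with a median of 8 per gene, and 13 members had none. Summed over all its peaks, a member held a median of 396 counts in a mouse, with a range of 65 to 7080, and all 403 were tested as sums. The strongest peak of a member held a median of 16.7% of its counts, from 3.24% to 68.6%, and in 12 members it held over 50%. It did not sit at 1 place. Dividing each stretch into 5 equal parts, the strongest peak fell in the first part in 85 members, then in 72, 63, 81 and 102.

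Depth differed with genotype. Total counts ran from 5169108 to 15671557 in WT mice and from 4690971 to 6043771 in KO mice. Member peaks made up 3.10% to 3.51% of a WT library and 3.16% to 3.44% of a KO library, so these shares overlapped. The mean shares were 3.30% ± 0.167 (SD, n = 5) in WT and 3.30% ± 0.131 (SD, n = 5) in KO. A single peak outside the members took 5.69% to 14.5% of each library. Without it the members' share was 3.57% to 3.75% in WT and 3.67% to 3.85% in KO, with 3 KO mice above every WT mouse. In a search of all 245885 peaks, 1 had at least 5 counts in every WT mouse (17, 8, 21, 11 and 16) and 0 in every KO mouse. Its match to genotype follows from that search, and it belongs to no member. It lies on chromosome 14 between Stc1 (ending at 69041401) and Rps2-ps6 (starting at 76236647), the interval in which RefSeq places Slc39a14 at 70303467 to 70351452. That the peak belongs to Slc39a14 was not shown. A count of 0 in a library allows up to 3.

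Summed over their peaks, more members were higher in KO than lower. With edgeR's quasi-likelihood test and Benjamini-Hochberg adjustment over all 36715 gene IDs tested, 35 members of 403 (8.68%) were higher in KO and 1 was lower at adjusted p under 0.05. Over all genes tested, 2.9% were called higher and 1.01% lower. At unadjusted p under 0.05, 124 members were higher and 30 lower, or 30.8% and 7.44%, beside 15.7% and 11.8% of all genes. With loess offsets in place of TMM factors this split was 201 to 3, or 49.9% and 0.744% of members beside 10.5% and 9.07% of all genes. The lower share of members called lower turned over in 2 settings, to 11.4% of members beside 10.8% of all genes with DESeq2 and to 13.6% beside 12.003% without the strongest peak of each gene. The median log2 fold change of the members (KO over WT) was 0.08, against 0.00 for all genes, with 240 members above 0 and 163 below. The members called higher changed by 0.31 to 0.64 on the log2 scale. KO and WT mice did not overlap in 37 members (9.18%, against 6.02% of all genes), among them 19 of the 35. The adjusted calls rested on few mice. Leaving out WT3, WT5, KO6, KO9 or KO10 left 0 members and 0% of all genes called in either direction by edgeR. At unadjusted p those 5 fits called 86 to 117 members higher and 8 to 23 lower, which is 21.3% to 29.03% and 1.99% to 5.71% of members beside 11.6% to 14.3% and 7.54% to 9.74% of all genes. With 1 surrogate variable 0 members and 0.0654% of all genes were called higher, and at unadjusted p 31.3% of members and 12.5% of all genes. The excess over all genes also depended on which peaks were summed. With only the peaks that pass the filter over single peaks, 0.771% of members and 0.801% of all genes were higher at adjusted p, and without the strongest peak of each gene 1.74% and 1.09%. At unadjusted p these shares were 19.8% of members beside 12.9% of all genes, and 25.1% beside 12.5%.

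The share of genes called higher rose with the number of peaks per gene. Of genes with 1 peak, 1.06% were higher at adjusted p under 0.05 and 1.62% lower. These shares were 3.41% and 0.967% for 5 to 9 peaks, 5.13% and 0.855% for 10 to 19 peaks, 5.25% and 0.505% for 20 to 29 peaks, 7.60% and 0.380% for 30 to 39 peaks, and 10.7% and 0% for 40 or more. The median standard error of the log2 fold change was 0.15 for genes with 1 peak, 0.18 for 2 to 4 peaks, 0.10 for 20 to 29 peaks and 0.09 in both member classes. The difference between these classes was not tested.

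**Figure D1:**
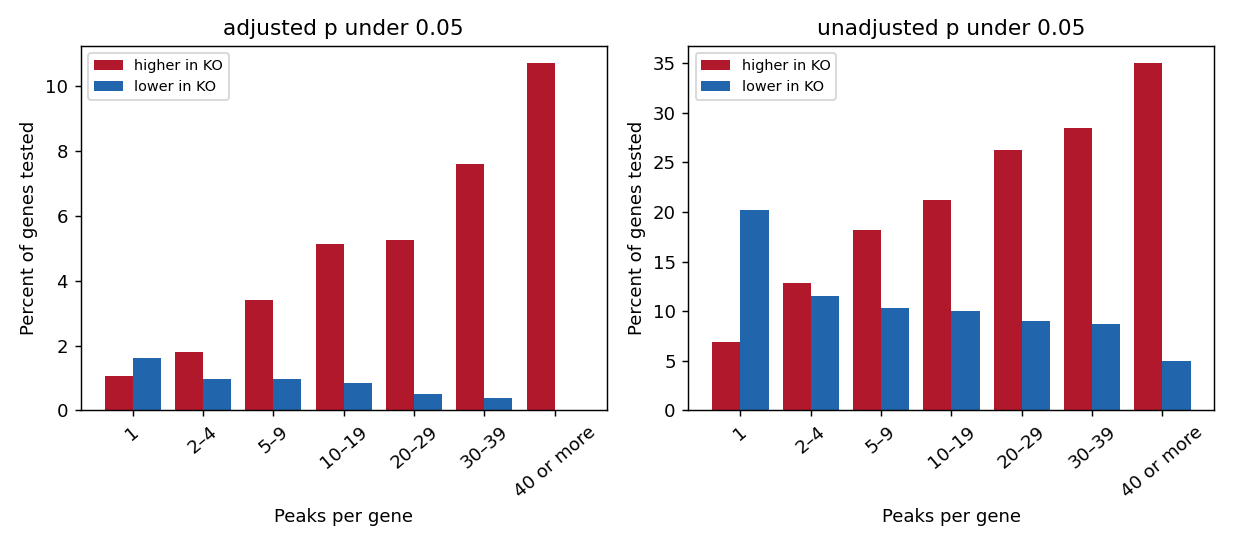
Percent of genes tested that were higher (red) or lower (blue) in KO, by number of peaks per gene, at adjusted p (left) and unadjusted p (right) under 0.05 from edgeR on summed counts. The red bars climb from 1.06% to 10.7% on the left while the blue bars decline to 0%.

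Single member peaks did not show this excess. Of 3848 member peaks tested, 407 (10.6%) were higher in KO and 210 (5.46%) lower at unadjusted p under 0.05, beside 10.3% and 5.6% of all 80700 peaks tested. At adjusted p under 0.05 the edgeR fit called 0% of all peaks and 0 member peaks, the lowest adjusted p of a member peak being 0.0562. The median log2 fold change of member peaks was 0.02, against 0.00 for all peaks. The split of higher to lower peaks moved with the scaling, to 318 and 295 with total counts (8.26% and 7.67% of member peaks, beside 8.12% and 8.62% of all peaks) and to 284 and 226 with loess offsets (7.38% and 5.87%, beside 7.93% and 5.54%). Of the 35 members called higher as sums, 9 had no single peak past unadjusted p 0.05 and 3 had no peak strong enough to test.

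Among members, the difference between genotypes followed the strength of the peaks. The log2 fold change of a member had a Spearman rho of -0.81 with its mean count per peak, over 403 genes that share the same 10 libraries, and the rho was -0.64 over 32249 genes with 2 to 29 peaks. With its number of peaks the rho was 0.06. Of 82 members with at most 6 counts per peak, 59 were higher and 0 lower at unadjusted p, and their median log2 fold change was 0.35. Of 24 members with over 40 counts per peak, 1 was higher and 7 lower, with a median of -0.12. Genes with 2 to 29 peaks had medians of 0.38 and -0.14 in these same classes. Of them, 35.6% were higher and 0.236% lower in the first class, beside 72.0% and 0% of members, and 1.25% and 29.4% in the second, beside 4.17% and 29.2% of members. Of the 35 members called higher, 32 had at most 10 counts per peak. Single peaks followed the same order, but they are not separate support for it. The filter admits peaks by CPM in as many mice as a genotype holds, while the classes use raw counts. KO libraries were shallower on average, so a peak admitted through KO mice has a lower mean count. Genes with 2 to 29 peaks also had to pass such a filter. The part of the filter in this order was not tested. With all tested peaks divided into 4 equal classes by mean count, 15.2% of member peaks were higher and 2.24% lower in the weakest class, and 4.81% and 12.4% in the strongest. These lie near the shares of all tested peaks in the same classes, 18.5% and 1.43% in the weakest and 2.80% and 11.1% in the strongest.

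**Figure D2:**
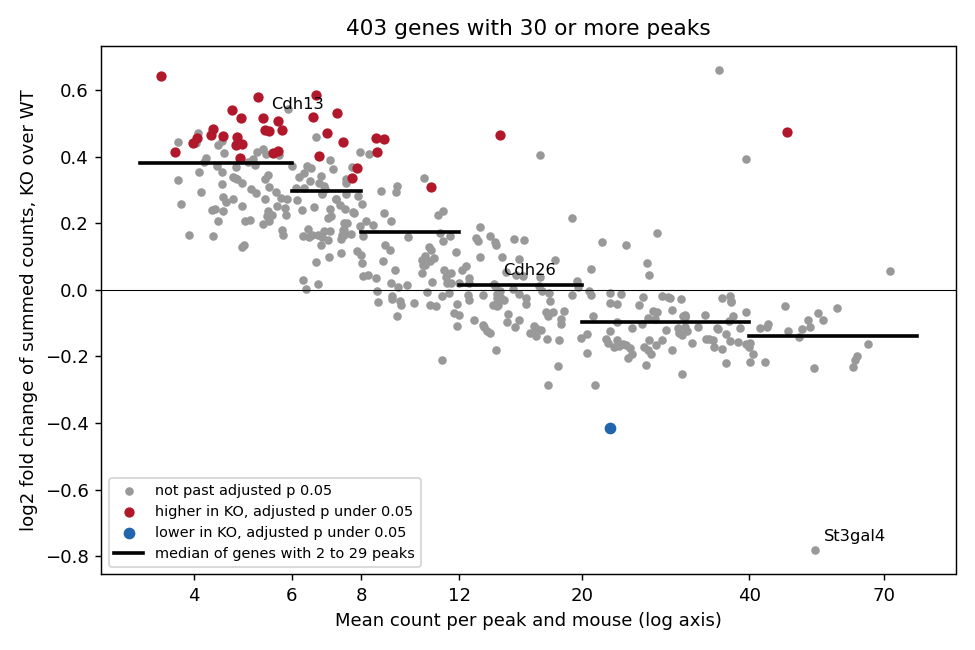
Each point is 1 of the 403 members, with its mean count per peak and mouse (log axis) against the log2 fold change of its summed counts (KO over WT); black bars are the medians of genes with 2 to 29 peaks in 6 classes of mean count. Members of few counts per peak lie above 0, with a median of 0.35 at 6 counts or fewer, and those of many lie mostly below, with a median of -0.12 over 40.

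Counts within members were spread more evenly over the peaks in KO mice. When the peaks of each member were ranked by mean count, the strongest peaks held 20.4% to 22.3% of the member counts in WT mice and 18.9% to 21.2% in KO mice. Those ranked 2 to 5 held 32.2% to 33.9% in WT mice and 29.9% to 32.0% in KO mice, every KO mouse below every WT mouse. Peaks ranked 21 or lower in strength held 10.7% to 12.7% in WT mice and 13.1% to 15.3% in KO mice, so that every KO mouse lay above every WT mouse. After thinning each mouse to the lowest total count and ranking again, these ranges were 10.8% to 12.6% and 12.9% to 15.2%. For ranks 2 to 5 they were then 32.1% to 33.9% and 30.2% to 32.1%, with 4 KO mice below every WT mouse. Per gene, the median log2 ratio of the strongest peak to the sum of the rest was -2.26 ± 0.094 (SD, n = 5) in WT and -2.41 ± 0.121 (SD, n = 5) in KO. It was -2.36, -2.24, -2.17, -2.37 and -2.18 in WT1 to WT5 and -2.54, -2.27, -2.30, -2.48 and -2.49 in KO6 to KO10. KO6, KO9 and KO10 lay below every WT mouse, and KO7 and KO8 lay among them. As another measure, outside the members, peaks too weak to test held 8.99% to 10.6% of the counts in WT mice and 10.1% to 13.0% in KO mice. There KO6, KO9 and KO10 lay above every WT mouse, and KO7 and KO8 within the WT range. The part of this spread in the gene calls was not tested. With all mice thinned to 1 depth, 14 members (3.47%) were higher at adjusted p beside 0.720% of all genes, and 121 (30.02%) at unadjusted p beside 13.2%.

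**Figure D3:**
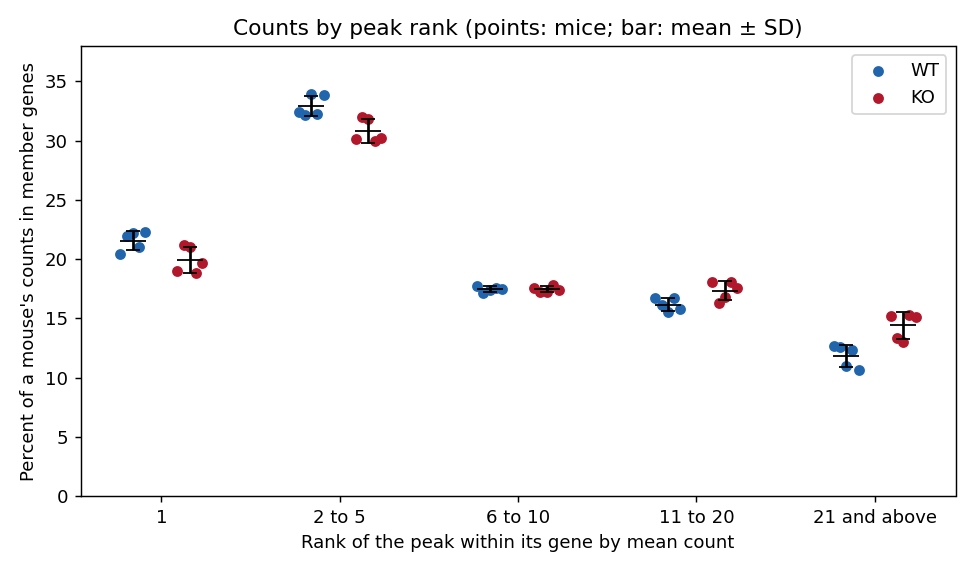
Percent of a mouse's counts in the 403 members that fell in peaks of rank 1, 2 to 5, 6 to 10, 11 to 20 and 21 or more within their gene; points are mice, bars mean ± SD of 5 mice. The mean of WT (blue) is higher in the first 2 classes and that of KO (red) in the last 2, without overlap at ranks 2 to 5 and at rank 21 and above.

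Cdh13 encodes T-cadherin, an adhesion protein anchored to the membrane by a lipid rather than a transmembrane segment, and its 43 peaks held few counts each (mean 5.31 per mouse). Its summed level was 30.1, 27.1, 28.2, 29.9 and 20.6 CPM (counts per 1000000 of the scaled library) in WT1 to WT5 and 52.2, 30.1, 31.0, 43.0 and 36.6 CPM in KO6 to KO10. All 5 KO mice lay above the 5 WT mice, KO7 by a narrow margin. The log2 fold change was 0.52 (SE 0.14), with an adjusted p of 0.0494 from edgeR and an exact two-sided permutation p of 0.00794, the smallest that 5 against 5 mice can give. This call stood at the threshold, since it held in 5 of 20 alternative settings, in which the adjusted p ran from 0.0297 to 0.143. Of the mice left out in turn, WT1, WT3, WT4, WT5, KO6, KO9 and KO10 each ended the call, with adjusted p up to 0.143, while the log2 fold change remained between 0.38 and 0.59. Only 2 of its peaks were strong enough to test, 1 of them higher at unadjusted p. The member that directly preceded it, with 36 peaks, had a log2 fold change of 0.47 (SE 0.15, adjusted p = 0.0674 by edgeR).

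Cdh26, a cadherin known from epithelia, had 61 peaks, and its difference between genotypes did not pass the test. Its sum was 122, 110, 115, 114 and 109 CPM in WT mice and 128, 117, 109, 120 and 103 CPM in KO mice. The values of the groups interleave. The log2 fold change was 0.02 (SE 0.08, adjusted p = 0.894 by edgeR), and of its 18 tested peaks 8 leaned up and 10 down, with 1 lower at unadjusted p. The member directly after it, with 69 peaks, had a log2 fold change of 0.29 (SE 0.11, adjusted p = 0.111 by edgeR). Of the 2 cadherins, then, Cdh13 alone was past adjusted p 0.05, where 2.9% of all genes were higher, and that call held in 5 of 20 alternative settings. Cdh13 is among the 82 members with at most 6 counts per peak, of which 21 (25.6%) were higher at adjusted p. Genes with 2 to 29 peaks in that class were higher in 5.47%. The midpoint of the log2 fold changes of Cdh13 and Cdh26 was 0.27.

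St3gal4 encodes a sialyltransferase that caps galactose on glycan chains with sialic acid, and among members it varied most between mice. Its 34 peaks summed to 62.7, 224, 239, 343 and 426 CPM in WT1 to WT5 and to 71.0, 61.9, 267, 58.5 and 300.3 CPM in KO6 to KO10. Mice of both genotypes stood at the bottom and at the top. The log2 fold change was -0.78 (SE 0.45), not past the threshold by edgeR (adjusted p = 0.257) or by an exact permutation test (p = 0.254). The SD of log2 CPM within genotype was 1.13, against a median of 0.14 over members.

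The variation of St3gal4 was bounded along the gene. WT1, KO6, KO7 and KO9 all lay below the other 6 mice at 24 of its 34 peaks, from position 7 to position 33 in chromosome order, a separation found at 0.260% of the remaining member peaks and at 0.556% of all tested peaks. Of the 34 peaks, 27 were strong enough to test. These mice were singled out after the values were seen, so no test was made. Summed over positions 19 to 33, the level was 7.51, 7.82, 6.96 and 4.46 CPM in WT1, KO6, KO7 and KO9. It was 94.7, 99.7, 132 and 177 CPM in WT2 to WT5, and 120 and 126 CPM in KO8 and KO10. Position 22 had 0 reads in WT1, KO6 and KO9 and 1 in KO7, while the other mice had 9.29 to 17.4 CPM there. The strongest peak, position 8, carried the same order, with 6.54 to 10.5 CPM in the lower mice and 58.9 to 132 CPM in the others. At either end of the gene the lower mice did not all lie below the others. Position 4 ran from 0.632 to 3.61 CPM and position 6 from 0.211 to 1.35 CPM, without that order. Positions 1 to 6 and 34 together held 28.4 to 38.5 CPM in all 10 mice. Position 34, at the end where the gene starts, ran from 13.2 to 24.0 CPM, with a log2 fold change of 0.00. Among the 20 peaks before the gene none showed the separation, and 1 did among the 20 after it. Which peak covers the promoter window shown above cannot be read from a table without coordinates.

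**Figure D4:**
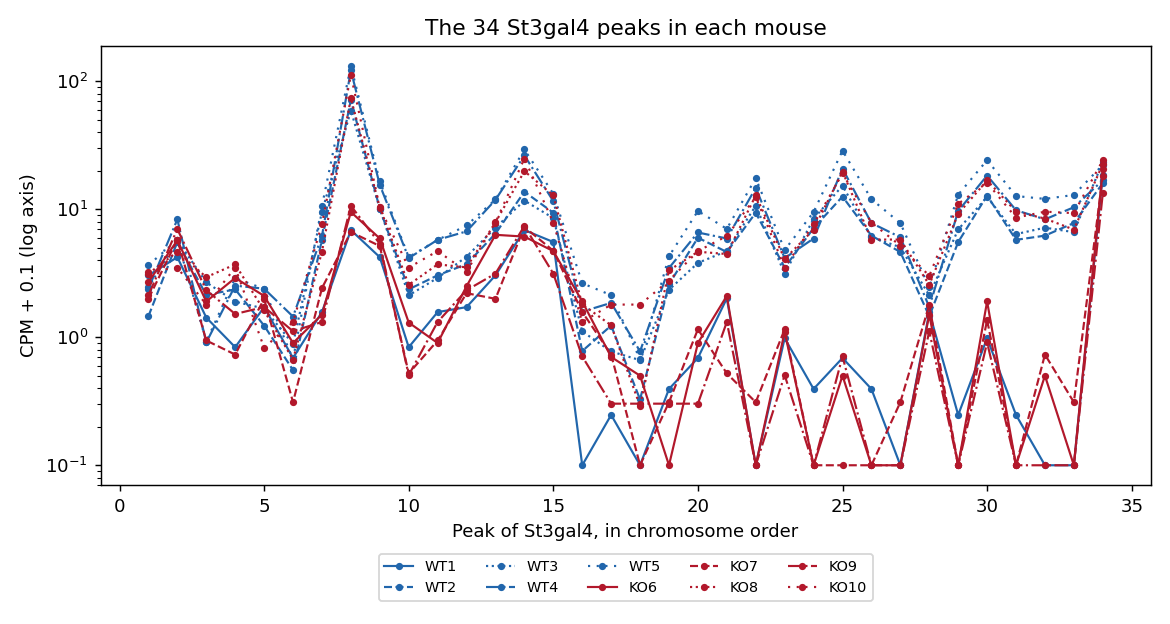
CPM + 0.1 (log axis) at the 34 St3gal4 peaks in chromosome order, 1 line per mouse, WT blue and KO red. At 24 peaks between position 7 and position 33 the lines of WT1, KO6, KO7 and KO9 fall below the other 6 (not at positions 16, 18 and 28), and at positions 1 to 6 and 34 they do not.

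A second stretch of this kind covered a pair of adjoining members on chromosome 6, between Vmn1r-ps32 (which ends at 90154002) and Klrb1a (which starts at 128609227). These members, chosen after their values were seen, have 47 and 70 peaks with no other peak between them. WT1, WT2, WT3, KO7, KO9 and KO10 all lay above WT4, WT5, KO6 and KO8 at 44 of the 117 peaks, from position 14 to position 101. Such a separation occurred at 0.332% of the other member peaks, at 0.524% of all tested peaks, at 1 of the 20 peaks before and at 0 of the 20 after. Summed over positions 14 to 101, the level was 637, 634, 492, 304 and 276 CPM in WT1 to WT5 and 394, 841, 391, 1046 and 1127 CPM in KO6 to KO10. The highest mouse was 4.08 times the lowest, against 1.40 times over the 40 flanking peaks. The larger member had a log2 fold change of 0.66 (SE 0.25, adjusted p = 0.105 by edgeR) and the smaller 0.39 (SE 0.23, adjusted p = 0.277). Together they supplied many of the member peaks higher at unadjusted p, 32 of 56 tested in the first and 16 of 38 in the second. The lower mice here differed in part from those of St3gal4. KO6 was low in both stretches, KO8, WT4 and WT5 were among the higher mice at St3gal4, and WT1, KO7 and KO9 were low there and high here.

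**Figure D5:**
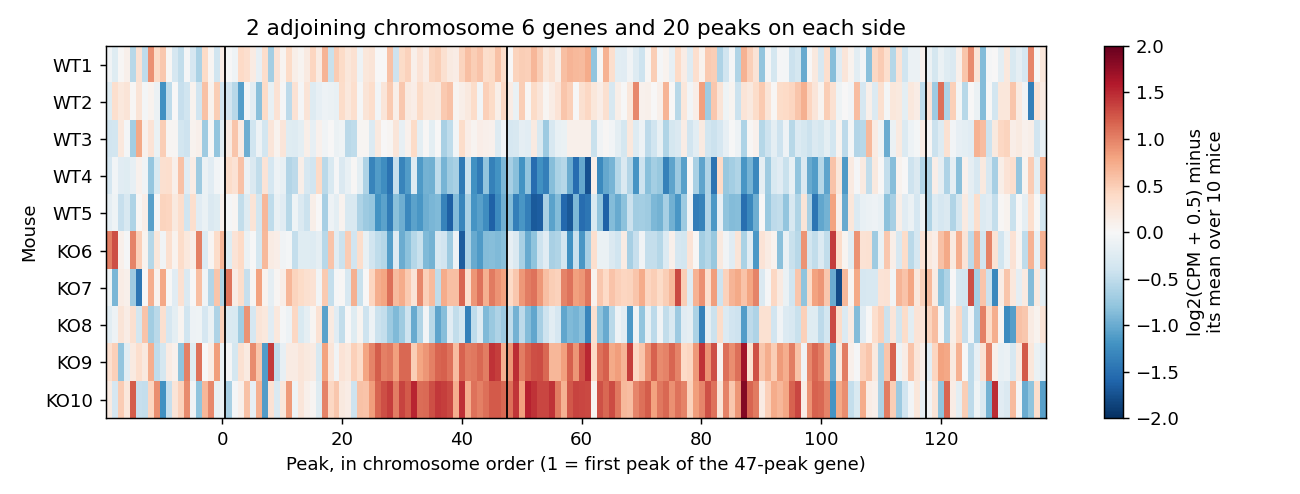
Rows are the 10 mice and columns peaks in chromosome order, 20 before, 117 within and 20 after the adjoining chromosome 6 members (black lines mark their ends); colour is log2(CPM + 0.5) minus the mean over mice. KO7, KO9 and KO10 are mostly red and WT4, WT5, KO6 and KO8 mostly blue within the stretch from about position 24 to position 101, while over the 40 flanking peaks the highest mouse was 1.40 times the lowest.

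Such spread was rare among members. The SD of log2 CPM within genotype was over 0.5 in 5 of 403, counting St3gal4 and the chromosome 6 pair. The others were a member of 42 peaks on chromosome 2 and one of 33 peaks that could not be placed. In the chromosome 2 member, which lies between Rps15a-ps7 and Mmp9, the first peak had 91, 5, 4, 11 and 17 counts in WT1 to WT5 and 6, 134, 8, 59 and 1 in KO6 to KO10. WT1, KO7 and KO9 were high there, and its log2 fold change as a sum was 0.54 (SE 0.26, adjusted p = 0.184 by edgeR). In the unplaced member the sum ran from 15.5 to 43.6 CPM in WT mice and from 25.6 to 55.0 CPM in KO mice.

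The members described next have no symbol and were chosen after their values were seen. ENSMUSG00000060969, the member with the lowest p, has 46 peaks on chromosome 13, between Slc25a48 (ending at 56472367) and Slc6a3 (starting at 73536128). Its sum was 33.3, 41.3, 36.2, 36.1 and 31.1 CPM in WT mice and 54.5, 43.1, 48.1, 50.8 and 57.1 CPM in KO mice. Every KO mouse was above every WT mouse, and the log2 fold change was 0.52 (SE 0.10, adjusted p = 0.0311 by edgeR). Its strongest peak, position 8, held 20.8% of its counts and had a log2 fold change of 1.05 (SE 0.20, adjusted p = 0.0608 over peaks), but KO7, at 11.2 CPM, lay below WT2, at 11.6 CPM.

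ENSMUSG00000095294, with 33 peaks on chromosome 8 between Slc10a2 (ending at 5105287) and Nrg1 (starting at 31807452), was the fourth by p among members higher in KO and ran against the trend with peak strength. It had a mean of 46.7 counts per peak and was the 1 member higher among the 24 with over 40 counts per peak. The sum was 177, 202, 188, 209 and 150 CPM in WT mice and 285, 208, 242, 271 and 278 CPM in KO mice. KO7 fell within the WT range, and the other 4 KO mice lay above it. The log2 fold change was 0.47 (SE 0.10, adjusted p = 0.0314 by edgeR). All 27 of its tested peaks leaned up, 20 of them at unadjusted p under 0.05. Its peak at position 32 had the lowest p of all member peaks, with 2.50, 2.49, 2.14, 2.30 and 2.67 CPM in WT mice and 6.21, 4.85, 4.75, 6.69 and 6.07 CPM in KO mice. These groups did not overlap, and the log2 fold change was 1.23 (SE 0.20, adjusted p = 0.0562 over peaks by edgeR).

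The only member lower at adjusted p was ENSMUSG00000047517, with 30 peaks on chromosome 7 between Gdpd3 (ending at 126775645) and Krtap5-5 (starting at 142228795). Its sum was 82.3, 94.8, 94.6, 115 and 106 CPM in WT mice and 67.5, 75.9, 76.3, 74.8 and 75.7 CPM in KO mice. Every KO mouse lay below every WT mouse. It fell by 0.42 on the log2 scale (SE 0.09, adjusted p = 0.0311 by edgeR). Of its 16 tested peaks 15 leaned down and 7 were lower at unadjusted p.

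The members with the most peaks are also unnamed and lie between marker genes of different chromosomes. The one with 115 peaks, spread thinly at 4.05 counts per peak, had 52.9, 55.5, 56.5, 64.8 and 48.7 CPM in WT mice and 104, 66.8, 64.0, 74.8 and 70.7 CPM in KO mice. KO8 lay within the WT range and the other KO mice above it. Its log2 fold change was 0.46 (SE 0.12, adjusted p = 0.0415 by edgeR), and its 3 peaks that could be tested were each higher at unadjusted p. The one with 93 peaks had a mean of 87.9 CPM ± 5.93 (SD, n = 5) in WT and 107 CPM ± 11.6 (SD, n = 5) in KO. The KO mice all lay above the WT mice, yet its adjusted p of 0.0547 by edgeR missed the threshold, with a log2 fold change of 0.29 (SE 0.08).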

How the data were processed

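ATAC-seq libraries (75 bp paired-end) of sorted IECs from duodenum and upper jejunum from 5 WT and 5 KO mice were analysed. The authors deposited raw read counts per peak, and beside them a normalized signal that equals the count divided by 1 factor per mouse, which was checked and not used further. The submitters' processing notes name the build mm10. The aligner, peak caller, annotation rule and pooling of replicates are not given in the sources used here. A second normalized table of the same libraries and the columns of the authors' own comparisons were not used. Of 246501 rows, 22 had no values and 594 no gene ID (0.612% to 0.965% of the counts), and these were left out. Total counts per mouse were 4690971 to 15671557, and counting limits cover counting error only.

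Counts were summed per gene ID and fitted over all gene IDs, and separately over all peaks, with edgeR 4.0.16 in R 4.3.3 (filterByExpr, TMM, glmQLFit and glmQLFTest, Benjamini-Hochberg adjustment). The fits were tested on simulated data with 2-fold and 4-fold changes. Of 100 changes put in, 81 and 92 were recovered over genes, and 55 and 86 over peaks. The members called changed by less than 2-fold, so recovery at that size was not examined. The share of false calls was above the nominal level, so calls near the threshold are less certain than their adjusted p. CPM is the count per 1000000 of the TMM-scaled library of the same fit, and SDs within genotype were taken on log2 CPM with a prior count of 2. Exact permutation tests covered 252 labelings. Peak order was inferred by taking the rows as listed in text order of a running number. Peaks were then placed between genes named in the study's list of differentially expressed transcripts and found in RefSeq GRCm38.p6, with 1 neighbouring pair out of order. The named genes were to be those with most peaks, most counts or lowest p among members with a symbol, and every member with a symbol is reported. Alternatives were DESeq2 1.42.0, other scalings and filters, sva 3.50.0, thresholds of 20 and 40 peaks, and each mouse left out. Nothing in the labels says how litters or sequencing batches fell, so p-values measure the spread between these mice. The members and the gene lists were chosen with earlier results of these data known.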

Additional observations from a re-analysis of the deposited data

Results flagged for a closer look

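In 2 of 46 groups of 5 mice examined, 1 mouse stood apart from its group by more than 0.71 of the whole range, where chance gives about 1 in 20. For Cdh13, WT5 had 4.38 log2 CPM, below the other WT mice at 4.77 to 4.92. For ENSMUSG00000047517, KO6 had 6.08 log2 CPM, below the other KO mice at 6.23 to 6.26.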

How the results depend on the processing

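No paired analysis was possible because mice 1 to 5 are all WT and mice 6 to 10 all KO, so no number occurs in both groups. The counts of members called depended on the processing more than the directions did, and the cause was not tested except where stated. For members at adjusted p under 0.05 (35 higher, 1 lower), the counts were 0 and 0 with 1 surrogate variable, and 3 and 0 when only peaks that pass the filter were summed (0.771% of members higher, beside 0.801% of all genes). They were 87 and 6 at 20 or more peaks and 15 and 0 at 40 or more, where the number of genes itself differs. By class, the shares were 5.25% and 0.505% of 991 genes with 20 to 29 peaks and 7.60% and 0.380% of 263 with 30 to 39. At 40 or more peaks they were 10.7% and 0% of 140 genes, beside 2.9% and 1.01% of all genes. Without the strongest peak 7 were higher (1.74%, beside 1.09% of all genes), and 14 after thinning (this alternative, and the unadjusted counts, were added once the data had been seen). DESeq2 gave 4 of 403 members lower, beside 967 of 44566 genes, and loess offsets 0 lower, beside 50 of 36715 genes. Leaving out 1 mouse gave 0 to 54 higher and 0 to 2 lower, with 0 in both directions without WT3, WT5, KO6, KO9 or KO10. The 54, without KO7, were 13.4% of members beside 4.33% of all genes. Without WT2 the shares higher were 10.9% of members and 5.86% of all genes. The 2 lower came without WT1 or without WT2, beside 288 of 37146 and 1125 of 37317 genes. At unadjusted p (124 higher, 30 lower), loess offsets gave 201 and 3 and tested peaks alone 77 and 17, while the number lower was 46 with DESeq2, 17 with total counts, 12 with 1 surrogate variable and 55 without the strongest peak. As shares of members, with all genes in parentheses, loess offsets gave 49.9% and 0.744% (10.5% and 9.07%) and tested peaks alone 19.8% and 4.37% (12.9% and 7.11%), and the share lower was 11.4% with DESeq2 (10.8%), 4.22% with total counts (10.4%), 2.98% with 1 surrogate variable (8.09%) and 13.6% without the strongest peak (12.003%). Leaving out 1 mouse gave 86 to 145 higher and 8 to 38 lower, or 21.3% to 36.0% and 1.99% to 9.43% of members beside 11.6% to 17.0% and 7.54% to 13.2% of all genes. The median log2 fold change of members was 0.19 with loess offsets and 0.06 to 0.10 with 1 mouse left out. For member peaks (407 higher, 210 lower), the counts were 700 and 479 with DESeq2, 1020 and 756 with no filter, 254 and 124 with at least 10 counts in every mouse, 1074 and 559 at 20 or more peaks and 186 and 77 at 40 or more, with 266 higher after thinning and 321 to 483 higher and 155 to 267 lower with 1 mouse left out. As shares, these were 4.43% and 3.03% of 15791 member peaks tested with DESeq2 (all peaks, 4.98% and 4.73%), 6.46% and 4.79% with no filter (6.93% and 6.83%), 10.7% and 5.23% of 2371 with at least 10 counts (10.2% and 5.09%) and 8.41% higher of 3162 after thinning (8.12%). With 1 mouse left out they were 7.94% to 11.6% higher and 3.83% to 6.41% lower, beside 7.80% to 12.04% and 4.21% to 6.87% of all peaks, so they lay near the background share. Their median log2 fold change was 0.13 with DESeq2, 0.11 with no filter, -0.0402 with total counts, -0.0160 with loess offsets and 0.0111 to 0.0353 with 1 mouse left out. The log2 ratio of the strongest peak to the rest, KO minus WT, was -0.15 and ran from -0.19 to -0.12 with 1 mouse left out. The members' share of counts differed by 0.00324 percentage points, by -0.0817 at 20 or more peaks and by -0.0478 to 0.0562 with 1 mouse left out, so it has no stable sign. The Cdh26 log2 fold change turned to -0.0055 with DESeq2, -0.0364 without its strongest peak and -0.0033 with tested peaks alone, and ran from -0.0231 to 0.0528 with 1 mouse left out. St3gal4 stayed below 0 and past no threshold in 20 settings (-1.18 to -0.52). At this depth most member peaks held too few counts to pass the filter.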
